A study of Homo sapiens with 12 samples.

Results

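DEPTOR, MTOR, RPTOR, RICTOR, MLST8, MAPKAP1, TELO2 and AKT1S1 encode the mTOR kinase, the proteins that assemble with it and its inhibitors. These 8 of the 26641 genes in the table were followed across all 12 libraries of an RNA-seq experiment. They were picked by symbol. DEPTOR was chosen on its response to recruitment in these same libraries, and the other genes because their products share a complex with it. The recruitment values of the 8 genes are therefore given as a description, with no p-value. Which of them passed the test applied to all genes is only counted, with nothing read from it. The level of DEPTOR between the fusions is also a description, since its control libraries entered that choice. The cells were NCCIT, a human embryonal carcinoma line. Each of 6 transgenic lines carried a doxycycline-inducible, nuclease-dead S. pyogenes Cas9 fused to an activation domain (dCas9-VPR, CRISPRa) or a repression domain (dCas9-KRAB, CRISPRi), together with 1 of 3 CARGO guide arrays. The LTR5HS Sp array carries guides to LTR5HS, the long terminal repeats of the youngest HERVK retroviruses, on the S. pyogenes scaffold, so that the fusion is brought to them (recruitment). The LTR5HS Sa array carries the same targets on the S. aureus scaffold, which this dCas9 does not bind, and the nontarget Sp array loads dCas9 with guides that have no genomic target, and these arrays are the controls. All lines, controls included, expressed their fusion under doxycycline for 4 days. Each line gave 2 replicate libraries of polyA RNA, so that a fusion had 2 recruitment and 4 control libraries. Each combination of fusion and array exists as 1 drug-selected line, and a difference between fusions cannot be told apart from a difference between lines. Within a fusion, recruitment likewise rests on 1 line against 2 control lines. Its p-values measure the spread between libraries and cannot tell recruitment apart from a trait of that line.

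mTOR is a protein kinase that couples cell growth to nutrients and growth factors. It works in a pair of complexes that share MLST8. In mTORC1 the scaffold RPTOR brings in substrates such as S6 kinase and 4E-BP, and AKT1S1 (PRAS40) holds the complex back. In mTORC2 RICTOR and MAPKAP1 (SIN1) direct the kinase to AKT and SGK1. DEPTOR binds mTOR in either complex and is known as an inhibitor of the kinase. TELO2 is part of the chaperone complex through which new mTOR protein is assembled.

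The guides that could bring dCas9 into these genes are shown because they carry the targeting. The LTR5HS array holds 12 guides, each listed with 16 bases. Exact matches followed by an NGG motif were searched in the GRCh38 genome, on both strands, and matches at most 1000 bp apart were joined. In the genome 648 such clusters held at least 2 different guides. A cluster of this kind lay inside 2 of the 8 genes, DEPTOR and RPTOR, and the 6 guides with a match in either cluster were the following, written 5′ to 3′, with the 5 bases next to the motif in capitals.
LTR5HS-1: tactaagggaaCTCAG
LTR5HS-3: aaaactgccttAGGGC
LTR5HS-4: agcccgacaccCGTAA
LTR5HS-7: aaccttggacaATACC
LTR5HS-8: taaagggtctgTGCTG
LTR5HS-9: gacattccattGCCCA

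Guides 7, 8 and 9 matched in both clusters. They also had the most exact matches of the 12 guides over the whole genome, with 525, 726 and 434. Guide 1 matched in the DEPTOR cluster, and guides 3 and 4 in the RPTOR cluster. These are matches of letters, and binding at either site was not analysed here. The clusters were not checked against a repeat annotation. The paper predicts that the array also matches part of the related LTR5A and LTR5B repeats, so the repeat class of either cluster is not known here.

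The libraries held between 13601701 and 69797411 assigned reads. The deepest was replicate 2 of the dCas9-KRAB nontarget Sp line, and the next deepest held 24840708. All 10 embryonal carcinoma markers were above 1 CPM in every library, but their summed level was 1231 to 2099 CPM in the dCas9-VPR lines and 4979 to 5737 CPM in the dCas9-KRAB lines. NANOG ranged from 1.05 to 185 CPM. Levels are in CPM, the reads of a gene scaled to the size of its library after TMM normalization. In bulk RNA, fewer cells of a type and less RNA per cell cannot be told apart. For the tests, edgeR's quasi-likelihood F-test was used, its p-values were adjusted by Benjamini-Hochberg over all genes tested, and a gene was called where the adjusted p was under 0.05. A list of 6 neural markers summed to 131 to 366 CPM, most of it TUBB3. Lists of endoderm and of trophoblast markers summed to at most 14.5 and 12.1 CPM, both highest in the dCas9-VPR recruitment line. Most of the trophoblast sum in that line was CDX2, and every other trophoblast marker stayed under 1 CPM in all libraries.

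DEPTOR was the member that differed most with recruitment, upwards with dCas9-VPR and downwards with dCas9-KRAB. In the dCas9-VPR lines it stood at 41.8 and 44.5 CPM with LTR5HS Sp. The control libraries of that fusion had 5.35 and 3.38 CPM with LTR5HS Sa and 3.20 and 2.63 CPM with nontarget Sp. The recruitment libraries lay far above all 4 controls, with means of 43.2 ± 1.92 CPM (SD, n = 2) and 3.64 ± 1.19 CPM (SD, n = 4), a ratio of 11.9. In the dCas9-KRAB lines the order was the other way round. LTR5HS Sp gave 2.69 and 3.79 CPM, LTR5HS Sa 14.0 and 16.8 CPM, and nontarget Sp 17.1 and 18.0 CPM. Both recruitment libraries lay below every control, at 3.24 ± 0.780 CPM (SD, n = 2) against 16.5 ± 1.71 CPM (SD, n = 4), and the control mean was 5.09 times the recruitment mean.

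On the log2 scale DEPTOR differed by 3.56 (SE 0.25) with dCas9-VPR and by -2.36 (SE 0.21) with dCas9-KRAB, and the difference between these values was 5.92 (SE 0.36). The values rested on 50 to 833 DEPTOR reads in the dCas9-VPR libraries and on 48 to 1188 in the dCas9-KRAB libraries. Against the LTR5HS Sa line alone the log2 fold changes were 3.29 and -2.25, and against the nontarget Sp line alone 3.89 and -2.45. Across the recruitment lines DEPTOR spanned a 13.3-fold range, from the repressed to the activated line. The level in the dCas9-VPR controls was 1.12 times that in the dCas9-KRAB recruitment line, and their ranges overlapped.

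**Figure D1:**
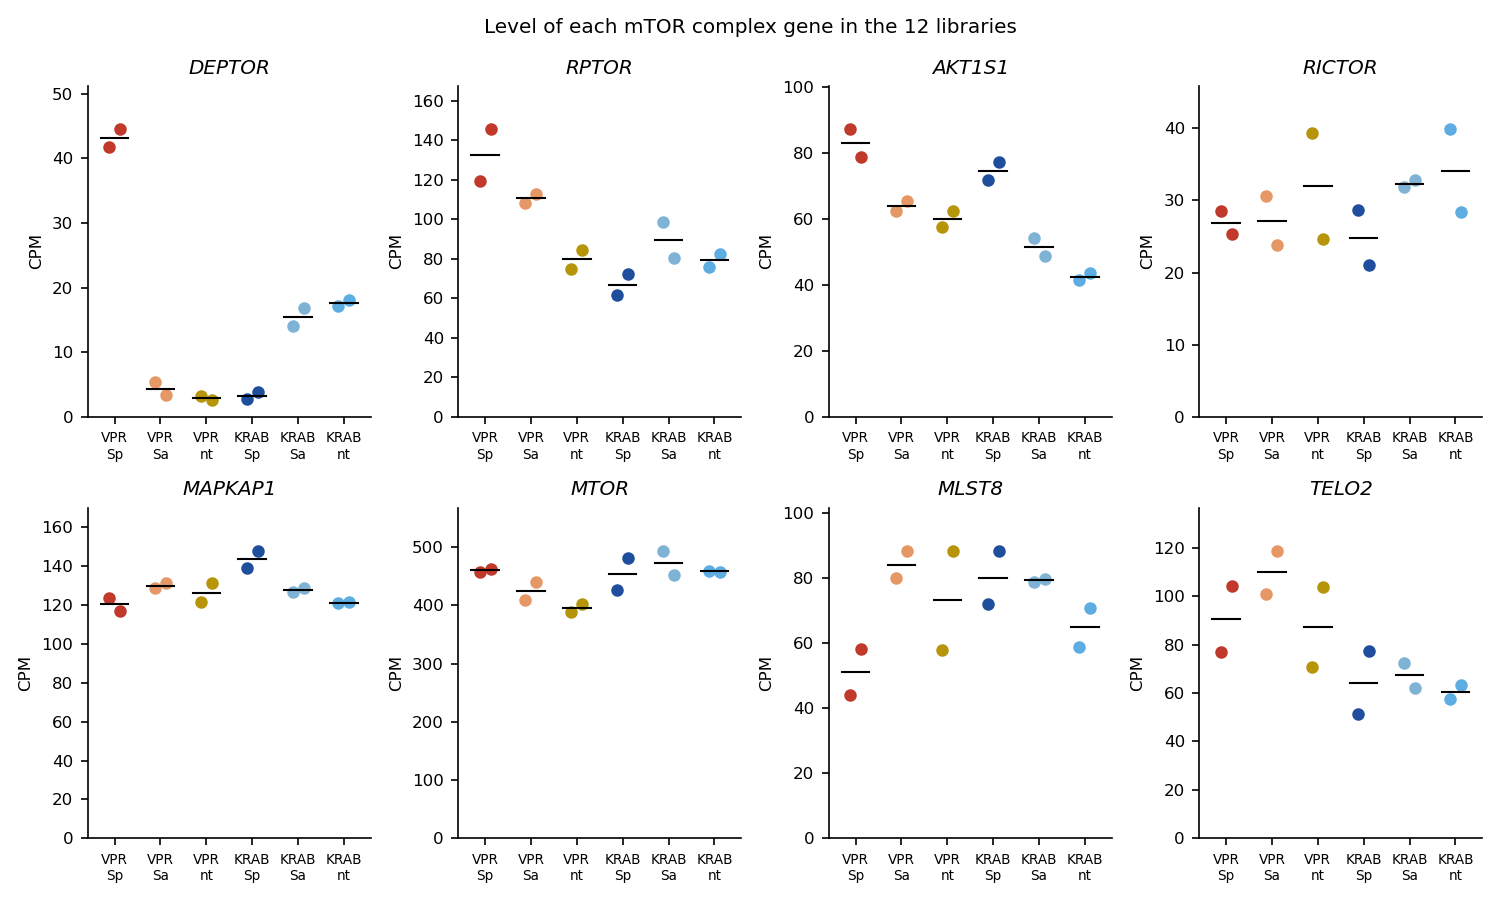
Level of each of the 8 genes in CPM (linear axes from 0) in the 12 libraries, by fusion (VPR, KRAB) and array (Sp, LTR5HS Sp; Sa, LTR5HS Sa; nt, nontarget Sp). Points are single libraries and black lines the mean of 2 replicates; DEPTOR stands at 41.8 and 44.5 CPM in the activated line and between 2.63 and 18.0 CPM elsewhere.

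DEPTOR spans chr8:119873717-120050918 on the plus strand of GRCh38 and has 9 exons in its canonical GENCODE 44 transcript. The guide cluster inside it lies at chr8:119917623-119918107, in intron 1, centred 44.1 kb downstream of the transcription start site (TSS), and holds 1 match each of guides 7, 8, 9 and 1 within 485 bp. RPTOR spans chr17:80544819-80966371 on the plus strand, and its cluster, at chr17:80551590-80551847 in intron 1, is centred closer to the start, 6.88 kb downstream of the TSS, and holds 5 guides. Clusters of a single guide were not considered, and the other genes lay far from any cluster of at least 2 different guides. The nearest was 835 kb from the TSS of MTOR (chr1:11106535-11262556) and 985 kb from that of AKT1S1 (chr19:49869033-49878459). For RICTOR, MLST8, MAPKAP1 and TELO2 it lay 3549 to 4278 kb away. Of the 14592 genes tested with both fusions that could be placed in the genome, 1.10% had a cluster inside the gene and 4.08% had one within 50 kb of the TSS. Among the 596 genes of the latter kind, 63.9% were called higher with dCas9-VPR recruitment and 32.4% lower with dCas9-KRAB recruitment, beside 14.3% and 1.99% of all placed genes.

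RPTOR, the mTORC1 scaffold, was the only other member whose recruitment libraries lay above every control with dCas9-VPR and below every control with dCas9-KRAB. This non-overlapping pattern was found in 4.83% of the 15145 genes tested with both fusions. With dCas9-VPR, RPTOR had 119 and 146 CPM with LTR5HS Sp, 108 and 113 CPM with LTR5HS Sa, and 74.6 and 84.6 CPM with nontarget Sp. The activated line was only just above the LTR5HS Sa line, and the log2 fold change was 0.25 against that line, 0.74 against the nontarget Sp line and 0.48 (SE 0.19) against both. With dCas9-KRAB, RPTOR had 61.5 and 72.5 CPM with LTR5HS Sp, 98.8 and 80.4 CPM with LTR5HS Sa, and 75.8 and 82.6 CPM with nontarget Sp, a log2 fold change of -0.33 (SE 0.14). Leaving out 1 library at a time moved the first value between 0.32 (without dCas9-VPR LTR5HS Sp replicate 2) and 0.62 (without replicate 1 of that line), and the second between -0.46 (without dCas9-KRAB LTR5HS Sp replicate 2) and -0.22 (without replicate 1 of that line).

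AKT1S1, the other inhibitory subunit, was higher with recruitment of either fusion. It had 87.2 and 78.7 CPM in the activated line and 57.5 to 65.5 CPM in the controls of that fusion, without overlap. The repressed line had 71.8 and 77.2 CPM and its controls 41.5 to 54.1 CPM, again without overlap. The share of all genes whose groups do not overlap in a single comparison was not counted. Nothing is read from such separation, here or below. The log2 fold changes were 0.42 (SE 0.10) with dCas9-VPR and 0.67 (SE 0.13) with dCas9-KRAB. Unlike DEPTOR, AKT1S1 thus stood higher in the recruitment line of either fusion. Recruitment cannot be told apart here from a trait of these lines.

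The kinase itself was among the steadiest of the 8 genes. MTOR stood at 457 and 463 CPM in the activated line, just above the 388 to 440 CPM of its controls, and at 426 and 482 CPM in the repressed line, on either side of the lower end of the 452 to 494 CPM of its controls. Its log2 fold changes were 0.17 (SE 0.09) and -0.04 (SE 0.10). MLST8, the subunit common to the complexes, had 44.2 and 58.1 CPM in the activated line and 57.8 to 88.5 CPM in the controls, with a log2 fold change of -0.62 (SE 0.20) and ranges that met at their ends. With dCas9-KRAB its value was 0.16 (SE 0.15).

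The mTORC2 subunits and the chaperone factor had log2 fold changes of either sign. RICTOR had 25.3 to 28.5 CPM in the activated line and 23.8 to 39.3 CPM in its controls. In the repressed line it had 21.0 and 28.7 CPM, and its controls ranged from 28.4 to 39.9 CPM. Its log2 fold changes were -0.14 (SE 0.21) and -0.41 (SE 0.18). The first reached 0.02 without dCas9-VPR nontarget Sp replicate 1, and the second was -0.66 without dCas9-KRAB LTR5HS Sp replicate 1 and -0.21 without replicate 2 of that line. MAPKAP1 had values of -0.09 (SE 0.10) and 0.21 (SE 0.10), the latter from 139 and 148 CPM with recruitment against 121 to 129 CPM. TELO2 had -0.12 (SE 0.21) and 0.01 (SE 0.17), with overlapping ranges for both fusions. Its sign depended on the replicate of the recruitment line, with 0.09 without replicate 1 and -0.37 without replicate 2 for dCas9-VPR, and 0.27 and -0.32 for dCas9-KRAB.

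By the same rule as all genes, 2 of the 8 members were past the threshold with dCas9-VPR, DEPTOR and AKT1S1, both higher. Over all 16271 genes tested with that fusion, 28.0% were called, 15.7% higher and 12.3% lower. With dCas9-KRAB 1 member was past it in each direction, AKT1S1 higher and DEPTOR lower, beside 0.831% of 15520 genes higher and 1.94% lower, 2.77% in all. For the difference between the fusions' recruitment effects, DEPTOR and RPTOR (0.81, SE 0.24) were past it, beside 21.0% of 16673 genes. Since DEPTOR was chosen on these contrasts, nothing is read from these counts.

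**Figure D2:**
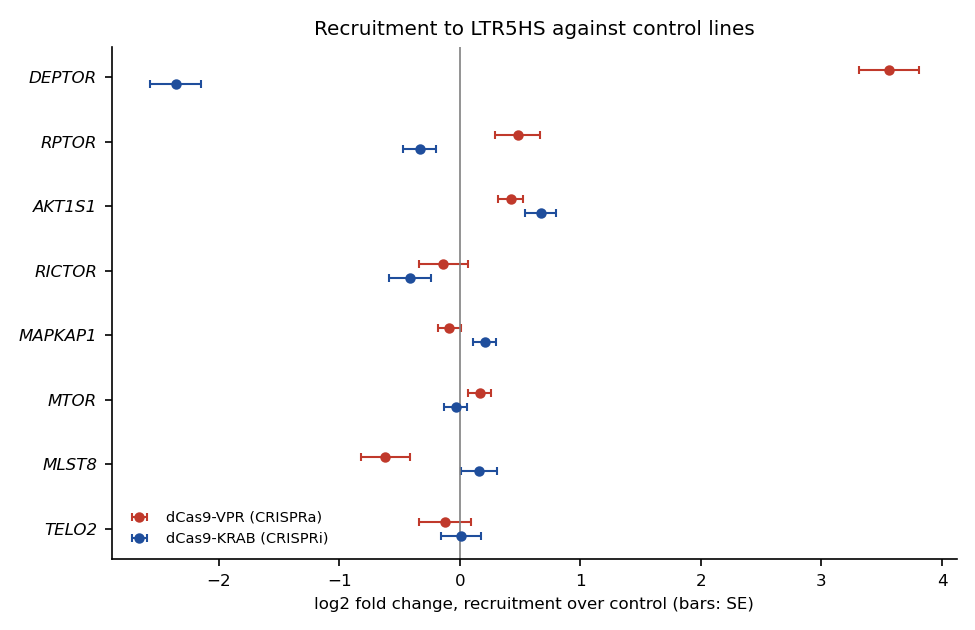
Log2 fold change of recruitment over control for the 8 genes with dCas9-VPR (red) and dCas9-KRAB (blue); points are edgeR estimates and bars their SE. DEPTOR lies at 3.56 and -2.36, RPTOR at 0.48 and -0.33, and AKT1S1 at 0.42 and 0.67.

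The genes also differed in level. Per kb of gene model, MTOR was the highest member in both sets of controls, at 47.0 ± 2.50 CPM per kb (SD, n = 4) with dCas9-VPR and 53.4 ± 2.18 CPM per kb (SD, n = 4) with dCas9-KRAB, with no overlap with the next gene. MLST8 and MAPKAP1 followed, with 38.3 ± 7.03 and 34.7 ± 1.26 CPM per kb in the dCas9-VPR controls, and their ranges overlapped in both sets. TELO2, AKT1S1 and RPTOR came next, at 29.6, 20.6 and 13.9 CPM per kb with dCas9-VPR and 19.2, 15.6 and 12.3 CPM per kb with dCas9-KRAB. Neighbours in this stretch overlapped in both sets, except AKT1S1 and RPTOR with dCas9-VPR. The bottom of the order changed with the fusion. DEPTOR was the lowest member in the dCas9-VPR controls at 1.38 ± 0.450 CPM per kb (SD, n = 4), below RICTOR at 3.08 ± 0.743. In the dCas9-KRAB controls DEPTOR, at 6.26 ± 0.649 CPM per kb (SD, n = 4), stood above RICTOR at 3.46 ± 0.502. With activation DEPTOR reached 16.4 ± 0.727 CPM per kb (SD, n = 2), close below RPTOR at 19.3 ± 2.70. With repression it was again the lowest, at 1.23 ± 0.296 CPM per kb (SD, n = 2).

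The comparison of the control lines asks whether the genes differ where no fusion is brought to LTR5HS. For DEPTOR it is a description, because these libraries are the controls of the contrasts it was chosen on. DEPTOR was 4.53 times higher in the dCas9-KRAB controls. All 4 dCas9-KRAB libraries, at 14.0 to 18.0 CPM, lay above all 4 dCas9-VPR libraries, at 2.63 to 5.35 CPM. The log2 fold change of dCas9-VPR over dCas9-KRAB was -2.19 (SE 0.21). It was -1.78 in the LTR5HS Sa lines alone and -2.57 in the nontarget Sp lines alone. Differences of this kind were common, since 57.5% of the 16192 genes tested were called, and 5.06% of them differed by more than DEPTOR did. The embryonal carcinoma markers moved with this comparison, from a summed 1264 to 2099 CPM in the dCas9-VPR controls to 4979 to 5737 CPM in the dCas9-KRAB controls. A mesoderm list of 6 genes, most of it HAND1, moved the other way, from 153 to 287 CPM to 9.39 to 19.6 CPM, with its defining gene T at or near 0 throughout. Their part in the result was not tested.

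Of the other members, 2 of 7 passed the test between fusions, 28.6% beside 57.5% of all genes. Both were higher with dCas9-VPR, as were 28.1% of all genes. TELO2 rose by 0.63 (SE 0.13, adjusted p = 0.00191 by edgeR), from 57.5 to 72.5 CPM in the dCas9-KRAB controls to 70.7 to 119 CPM in the dCas9-VPR controls, with a small overlap. AKT1S1 rose by 0.41 (SE 0.09, adjusted p = 0.00184 by edgeR), from 41.5 to 54.1 CPM to 57.5 to 65.5 CPM, with none. MTOR had -0.18 (SE 0.07, adjusted p = 0.0555 by edgeR), although its libraries did not overlap. With the replicate block its adjusted p was 0.0407 by edgeR, and without dCas9-KRAB LTR5HS Sa replicate 2 it was 0.0393. RPTOR had 0.16 (SE 0.10, adjusted p = 0.206 by edgeR). In the LTR5HS Sa lines alone RPTOR was called, at 0.33 (adjusted p = 0.0441 by edgeR), and in the nontarget Sp lines alone its value was 0.03 (adjusted p = 0.906). RICTOR, MLST8 and MAPKAP1 had values between -0.16 and 0.14.

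Between the control arrays of 1 fusion, edgeR without the replicate block called 0 of the 8 genes in either case. With dCas9-VPR, 2 of the 8 had an unadjusted p under 0.05, beside 18.8% of all genes, and DESeq2 called 1, beside 5.81%. Over all genes edgeR called 4.51%. With dCas9-KRAB none of the 8 had an unadjusted p under 0.05, beside 9.91% of all genes, and DESeq2 called 0, beside 1.44%. Over all genes edgeR called 0.567%. Between the dCas9-VPR arrays DEPTOR had a log2 fold change of LTR5HS Sa over nontarget Sp of 0.61 (SE 0.25, adjusted p = 0.234 by edgeR). It was 0.23 without LTR5HS Sa replicate 1 and 0.89 without replicate 2 of that line. RPTOR had 0.49 (SE 0.14, adjusted p = 0.0873 by edgeR, 0.0357 by DESeq2). The LTR5HS Sa libraries of RPTOR, at 108 and 113 CPM, did not overlap the nontarget Sp libraries, at 74.6 and 84.6 CPM. With the replicate number as a block in the dCas9-VPR fit, RPTOR (adjusted p = 0.00115 by edgeR) and TELO2 (0.37, adjusted p = 0.0117 by edgeR) were called, and DEPTOR had an adjusted p of 0.0606. That replicate block raised the calls over all genes from 734 to 3130. With dCas9-KRAB the values of the 8 genes lay between -0.18 (DEPTOR) and 0.29 (MLST8).

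**Figure D3:**
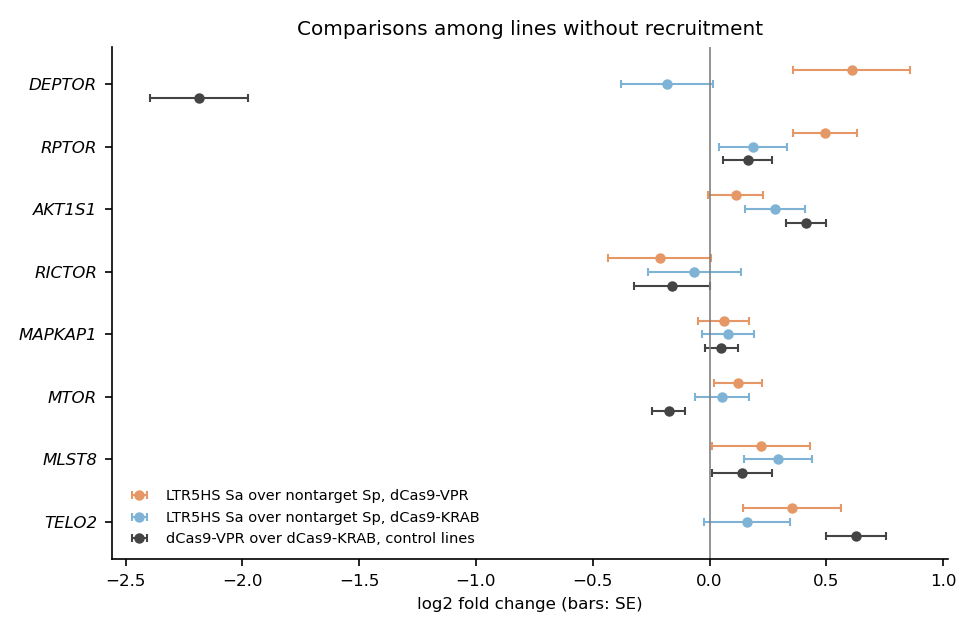
Log2 fold change of the 8 genes in the comparisons without recruitment: LTR5HS Sa over nontarget Sp with dCas9-VPR (orange) and with dCas9-KRAB (light blue), and dCas9-VPR over dCas9-KRAB in the control lines (dark grey); bars are SE. DEPTOR lies at -2.19 between the fusions, while the other genes lie between -0.18 and 0.63 there.

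The neighbours of DEPTOR were read from a fixed list of 11 genes on either side of it, within 966 kb of the guide cluster. COL14A1, which encodes a collagen of the extracellular matrix and is the next gene of the list beyond the end of DEPTOR, rose with dCas9-VPR recruitment by more than any other neighbour. It had 344 and 436 CPM in the activated line and 5.41 to 10.4 CPM in its controls, a log2 fold change of 5.64 (SE 0.22, adjusted p = 2.6e-06 by edgeR). In the repressed line it had 4.31 and 4.06 CPM, below the 8.67 to 16.8 CPM of its controls, and fell by 1.40 (SE 0.29, adjusted p = 0.0333 by edgeR). The fall was no longer called without dCas9-KRAB LTR5HS Sp replicate 1 (-1.45, adjusted p = 0.186), without replicate 2 of that line (-1.36, adjusted p = 0.223) or without LTR5HS Sa replicate 1 (-1.45, adjusted p = 0.0625). The TSS of its canonical transcript lies 207 kb from the guide cluster, and the recruitment effect on it differed between the fusions by 7.03 (SE 0.41, adjusted p = 1.03e-07 by edgeR). A list of 6 fibroblast genes also moved in the activated line, with a summed 3019 to 3130 CPM beside 110 to 175 CPM in its controls. COL1A1 alone reached 3006 CPM in that line, whereas DCN and LUM, which mark fibroblasts too, stayed at or below 1.11 and 3.81 CPM in all libraries. Their part in the COL14A1 result was not tested.

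The other neighbours, on either side, did not show this pattern. DSCC1, upstream of DEPTOR, a factor that loads the replication clamp, has its TSS 62.0 kb from the cluster, nearer than COL14A1, and fell with dCas9-VPR by 0.93 (SE 0.15, adjusted p = 0.00267 by edgeR). With dCas9-KRAB its value was -0.28 (SE 0.15, adjusted p = 0.45). TAF2, a subunit of the general transcription factor TFIID at 85.0 kb, had -0.12 with either fusion. ENPP2, which encodes autotaxin, at 279 kb had -0.05 and 0.11. MTBP and MRPL13, both about 527 kb away, had -0.15 and -0.22 with dCas9-VPR and -0.07 and -0.18 with dCas9-KRAB. The most distant tested genes, MAL2, SNTB1 and TNFRSF11B, at 710, 894 and 966 kb, did not pass the test with either fusion. TNFRSF11B had the highest value of them, 1.08 (SE 0.41, adjusted p = 0.0853 by edgeR) with dCas9-VPR. COLEC10 and NOV had too few reads to be tested. Of the 9 genes tested, 1 rose and 1 fell with dCas9-VPR, 22.2% beside 28.0% of all genes, and 1 fell with dCas9-KRAB, 11.1% beside 2.77%. In the control lines 6 of the 9 were lower with dCas9-VPR than with dCas9-KRAB, 66.7% beside 29.3% of all genes lower, and COL14A1 was not among the 6 (-0.49, SE 0.25, adjusted p = 0.108 by edgeR).

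**Figure D4:**
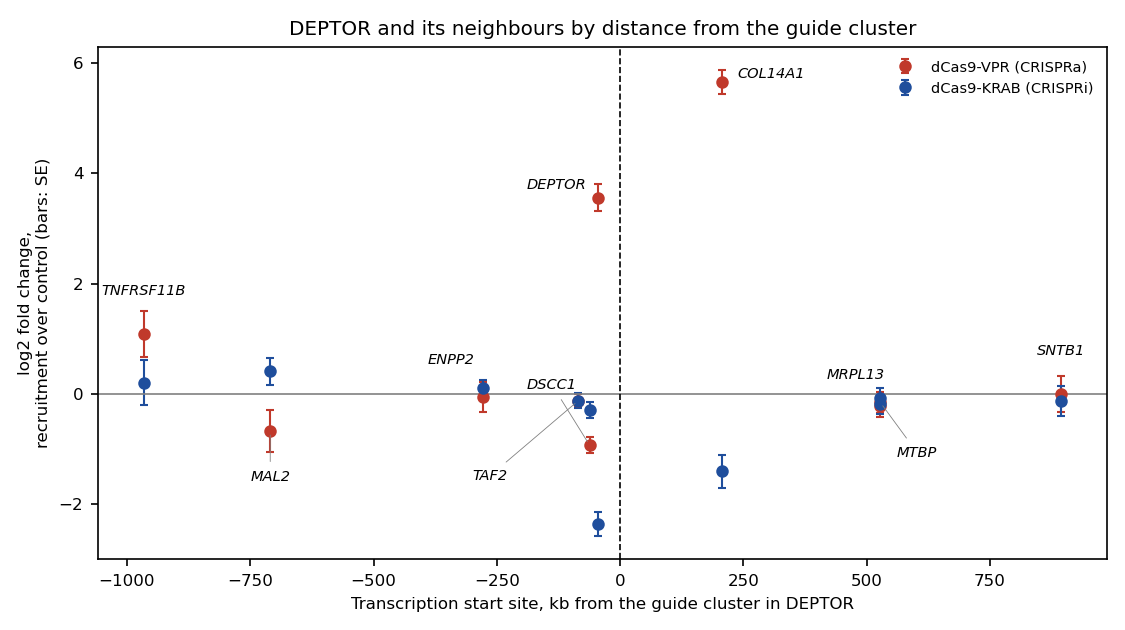
Log2 fold change of recruitment over control for DEPTOR and the 9 tested neighbours (y axis, bars are SE) against the distance of each TSS from the guide cluster in kb (x axis, cluster at 0, dashed line), for dCas9-VPR (red) and dCas9-KRAB (blue). DEPTOR (3.56 and -2.36) and COL14A1 (5.64 and -1.40) stand apart from the other tested genes on either side of them.

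Outside the complexes, 94 further genes of the mTOR pathway were read from 5 lists by role. With dCas9-VPR recruitment 11 of the 94 rose and 7 fell, 19.1%, beside 28.0% of all genes, with a median log2 fold change of 0.02. With dCas9-KRAB recruitment 1 of 93 tested genes fell and 0 rose, 1.08% beside 2.77% of all genes, with a median of 0.00. DESeq2 and the fit with the replicate block each called 2 with that fusion, 1 in each direction, and without dCas9-KRAB LTR5HS Sp replicate 1 the count was 0. The recruitment effect differed between the fusions for 13 of the 94 genes, 13.8% beside 21.0% of all genes, 5 of them in the direction of higher values with dCas9-VPR. Without replicate 1 or replicate 2 of the activated line, 10 and 9 of the 94 were called in place of 18.

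Of the 26 substrates and targets of mTOR, 5 rose and 2 fell with dCas9-VPR, 26.9% beside 28.0% of all genes. SGK1, a kinase that mTORC2 phosphorylates, was the only pathway gene called with both fusions, in opposite directions. It had 73.8 and 79.6 CPM in the activated line against 6.97 to 12.6 CPM, and 6.33 and 6.91 CPM in the repressed line against 13.3 to 15.1 CPM. Neither pair of groups overlapped. The log2 fold changes were 3.02 (SE 0.23, adjusted p = 4.63e-05 by edgeR) and -1.11 (SE 0.16, adjusted p = 0.00425 by edgeR), and the latter was not called without dCas9-KRAB LTR5HS Sp replicate 1 (-1.06, adjusted p = 0.0621). The nearest guide cluster lay 341 kb from its TSS. The transcription factors TFEB (1.28), TFE3 (0.60) and FOXO3 (0.64), which mTOR or AKT signalling keeps out of the nucleus, rose. LPIN1, a phosphatidate phosphatase under mTORC1, fell by 1.73 (SE 0.20), and EIF4EBP1, the translational repressor 4E-BP1, fell by 0.57 (SE 0.13).

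Of the 33 genes of the amino acid arm, through which the lysosome reports nutrients to mTORC1, 4 rose and 1 fell with dCas9-VPR. That was 15.2%, beside 28.0% of all genes. C7orf60, the S-adenosylmethionine sensor, rose by 1.31 (SE 0.20). LAMTOR2 rose by 0.76 (SE 0.13), while LAMTOR4, another subunit of the same Ragulator complex, fell by 0.70 (SE 0.14). GATSL2, whose reads may be split with near-identical copies, had 0.71, and the GTPase RRAGA 0.44. Of the 23 genes of the growth factor arm, 2 rose and 4 fell, 26.1% beside 28.0% of all genes. PIK3CA (0.81) and the adaptor IRS1 (0.73) rose. Among those that fell were the insulin receptor INSR (-1.15), the kinase AKT1 (-0.74) and the TSC subunit TBC1D7 (-0.59). Of the genes named in these 3 lists, LAMTOR4, RRAGA, AKT1, EIF4EBP1 and TFEB lost their call without either replicate of the activated line. TFE3 lost it without replicate 1, and GATSL2 and TBC1D7 without replicate 2. RRAGA also lost it without dCas9-VPR LTR5HS Sa replicate 1 or nontarget Sp replicate 2, and AKT1 without nontarget Sp replicate 1. None of the 4 further complex partners (PRR5, PRR5L, TTI1 and TTI2) and none of the 8 genes known to act on the stability of DEPTOR protein passed the test with either fusion. Over all genes 28.0% were called with dCas9-VPR and 2.77% with dCas9-KRAB.

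**Figure D5:**
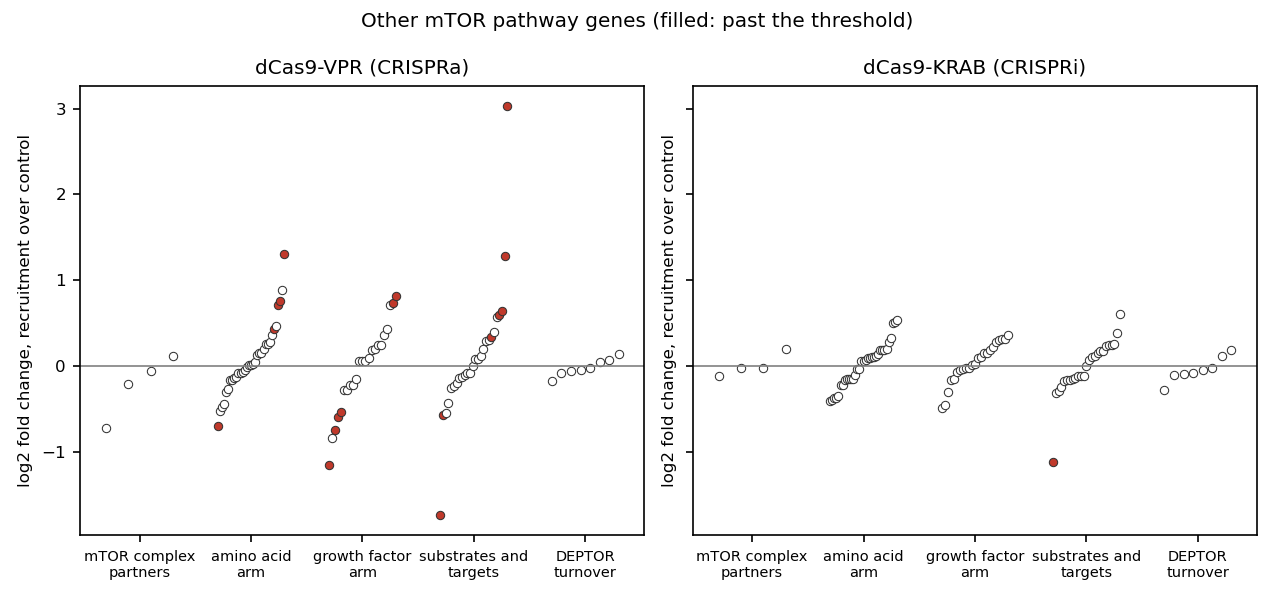
Log2 fold change of recruitment over control of the other mTOR pathway genes, in 5 lists, with dCas9-VPR (left) and dCas9-KRAB (right). Each point is a gene, ordered by value within its list, and filled points passed the threshold; the highest filled point on the left is SGK1 (3.02), which is also the only filled point on the right (-1.11).

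The genes whose level followed DEPTOR most closely were sought among the 15144 other genes tested with both fusions, by Pearson's r of log2 CPM over the 12 libraries, which share the grouping by line and so are not independent points. They were SMIM10L2A (r = 0.994), KLHL18 (0.988), ZNF75D (0.979), C6orf106 (0.977) and ST6GAL1 (0.976, a sialyltransferase). By this choice all 5 share the pattern of DEPTOR over the groups, and nothing is read from it. They were highest in the activated line, intermediate in the dCas9-KRAB controls, and low in the dCas9-VPR controls and the repressed line. SMIM10L2A had means of 198, 56.1, 10.8 and 7.74 CPM in these groups, and KLHL18 had 92.9, 68.4, 47.1 and 44.1 CPM. A guide cluster lay within 50 kb of the TSS of each, at 15.2 kb for SMIM10L2A, 22.8 kb for KLHL18, 41.0 kb for ZNF75D, 23.1 kb for C6orf106 and 36.7 kb for ST6GAL1. Over all placed genes 4.08% had such a cluster. Of the 217 placed genes called higher with dCas9-VPR recruitment and lower with dCas9-KRAB recruitment, 156 had one. Nothing particular to the 5 genes is read from these distances. Of the other 7 members, MTOR (r = 0.58) and RPTOR (0.55) had the highest positive values and MAPKAP1 (-0.65) and MLST8 (-0.63) the lowest.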

How the data were processed

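RNA-seq was performed on 6 NCCIT lines in 2 replicates. The authors trimmed reads with cutadapt 1.8.1, aligned them with HISAT2 2.1.0 to an hg38 transcript-aware index without mixed or discordant pairs, and assigned them to genes with featureCounts 1.4.6-p2 (versions from the submitters' processing notes). The annotation and strand setting are not given in the sources used here, so RNA from an overlapping gene on the opposite strand cannot be told apart. The values deposited are raw counts, with gene lengths in bp used for levels per kb, and 0 columns of other samples were present. The labels give the replicate numbers, and the paper describes the replicates as independent biological ones.

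Gene-wise tests used edgeR 4.0.16 under R 4.3.3 (filterByExpr, TMM, quasi-likelihood F-test, Benjamini-Hochberg, threshold 0.05). DESeq2 1.42.0 was an alternative. The SE is the log2 fold change divided by the root of F. Recruitment was compared with both control arrays pooled, within each fusion. The control arrays were compared in the fit of all lines of a fusion, and the fusions in the control libraries with the array as a covariate, with no p given for DEPTOR there. The interaction was fitted over 12 libraries. The scripts were tested on simulated data. Log2 CPM used a prior count of 2.

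Replicate numbers come from the labels. Between lines of 1 fusion, the differences of replicate 1 and 2 correlated at 0.216 to 0.435 in 6 of 6 pairs, so the numbers were taken as pairing the samples there. The main fits left this pairing out, and it was used only in the alternative fits with the replicate block. Over all 15 pairs of lines, 13 were above 0.1. Guide sequences are the study's designed guides, and genes were placed by GENCODE 44 on GRCh38, the build the submitters name. Of 15145 genes tested with both fusions 96.3% were placed, by current or older symbol.

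The members and lists were chosen with earlier results of these data known. Named were the 8 members, up to 4 genes per pathway list and direction with the largest change past the threshold, all listed neighbours, and the 5 genes with the highest r with DEPTOR. The values of 1 pathway gene are not reported here, and it stays in the counts. Depth was 13601701 to 69797411 counts per library, and fold changes of low genes are the less certain for it.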

Additional observations from a re-analysis of the deposited data

Results flagged for a closer look

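MTOR had a control library that stood apart. Among its 4 dCas9-KRAB controls, LTR5HS Sa replicate 1, at 494 CPM, was separated from the nearest of the others, which lay between 452 and 459 CPM, by 0.835 of the whole range, above Dixon's critical value for 4 samples. Chance gives such a gap in about 1 of 20 groups, and 16 groups were examined.

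DEPTOR and RPTOR lay above every control in the dCas9-VPR recruitment line and below every control in the dCas9-KRAB recruitment line. This pattern was found in 4.83% of the 15145 genes tested with both fusions. For DEPTOR and RPTOR the difference of the recruitment effects, dCas9-VPR minus dCas9-KRAB, was 5.92 and 0.81 on the log2 scale. No p-value is given for it and nothing is read from it, because DEPTOR was chosen on these contrasts.

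Among the pathway genes and neighbours, the recruitment effect differed between the fusions by the interaction term of edgeR's fit at an adjusted p under 0.05. It was more positive with dCas9-VPR for COL14A1 (7.03), SGK1 (4.14), C7orf60 (1.71), PIK3CA (1.11), FOXO3 (0.92) and LAMTOR2 (0.67). It was more negative for LPIN1 (-1.88), INSR (-1.25), AKT1 (-1.05), C12orf66 (-1.03), TBC1D7 (-0.96), LAMTOR4 (-0.88), EIF4EBP1 (-0.83) and DSCC1 (-0.64). Without 1 of the recruitment libraries of either fusion, the calls of AKT1, LAMTOR2, LAMTOR4 and C12orf66 were lost in 3, 2, 1 and 1 of the 4 cases.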

How the results depend on the processing

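DEPTOR kept its direction in all 28 alternatives run on its recruitment values, which were other size factors, filters and controls, DESeq2, the replicate block, 1 fit of all libraries and leaving out each library. Without single libraries it ranged from 3.43 to 3.82 with dCas9-VPR and from -2.62 to -2.13 with dCas9-KRAB. With the replicate block it was 3.58 and -2.36. The block changed no member's call other than those of RPTOR, TELO2 and MTOR given above. No value that passed the threshold changed direction in the alternatives run. Values nearer 0 did. Among the members' recruitment values these were TELO2 and RICTOR with dCas9-VPR and TELO2, MTOR and MLST8 with dCas9-KRAB, where leaving out 1 library gave 0.05 for MTOR, in place of -0.04. DEPTOR had under 100 reads in 5 of the 12 libraries, which limits its lower levels, and 2 libraries per line limit every comparison.

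Counts of called genes moved more, and the cause was not tested. With the replicate block the control arrays gave 3130 genes with dCas9-VPR in place of 734, and 410 with dCas9-KRAB in place of 88. The latter count was 528 with no filter, 34 with at least 10 counts in every library and 224 by DESeq2. With dCas9-KRAB recruitment DESeq2 called 716 genes in place of 430. Of the pathway genes, dCas9-KRAB recruitment gave 2 in place of 1 with no filter, by DESeq2, with the replicate block or with all 12 libraries, and 3 with nontarget Sp alone as control. With LTR5HS Sa alone as control, dCas9-VPR recruitment gave 28 in place of 18. Leaving out 1 library gave 2299 to 4626 genes and 9 to 21 pathway genes with dCas9-VPR recruitment, the lowest of each without LTR5HS Sp replicate 2, and 214 to 441 genes and 0 to 2 pathway genes with dCas9-KRAB recruitment. It gave 188 to 750 and 50 to 225 genes between the control arrays. The share of calls that were higher with dCas9-VPR recruitment was 56.1%, and 70.2% or 67.2% without 1 of its recruitment libraries.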
